A study of Mus musculus with 15 samples.

Results

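The comparison set 3 livers of AAV8-p21 mice at 8 days post-coitum (8 dpc) against 3 livers of non-pregnant (NP) AAV8-null mice, 6 of the 15 livers whose RNA was sequenced in this study. The members are defined by their labels and not by a measured value. Both the vector and pregnancy differ between these groups, and the comparison by itself cannot tell them apart. Every mouse was a wild-type C57BL/6 female. By the study's methods these were adult C57BL/6N females with no earlier pregnancy that received the virus through the tail vein, and mouse p21 cDNA was placed behind the TBG promoter, which is active in hepatocytes. AAV8-null carries the same promoter without the cDNA, so the NP controls also carried virus. The study asked how hepatocytes proliferate in the maternal liver and what follows when that is blocked. AAV8-null livers at 8 dpc (3 mice) were not part of the comparison, and their values are given beside it because they share pregnancy with one group and the vector with the other. Replicates are different mice, and fewer cells of a type cannot be told apart from less RNA per cell in whole liver.

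p21 is an inhibitor of cyclin-dependent kinases that holds cells before S phase and in G2. Through the pocket proteins it also keeps genes repressed that are needed for DNA replication and mitosis. The liver of a pregnant mouse enlarges, its hepatocytes pass through a wave of division in mid-gestation, and placental lactogens, prolactin, estrogen and altered insulin action shift its metabolism toward lipid synthesis and secretion.

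Counts per library were 12280709 to 13162802 in the NP group, 12977026 to 16176587 in the AAV8-p21 group and 13966590 to 15655604 in AAV8-null livers at 8 dpc. The hepatocyte gene Alb took 10.4% ± 0.580 of the counts (SD, n = 3) in NP livers, 9.17% ± 1.11 in AAV8-null livers at 8 dpc and 12.4% ± 0.642 in AAV8-p21 livers, and of 15 markers of pancreas, fat and placenta only Cela3b passed the filter on low counts, at 0.148 CPM or less. One library stood apart in each group. NP replicate 1 differed by more than 2-fold from its companions in 16% and 17.4% of the 12172 genes tested, whereas those companions differed from each other in 2.87%. AAV8-p21 replicate 3 differed in the same sense from its companions in 9.33% and 10% of genes (3.91% between the companions), and AAV8-null replicate 3 at 8 dpc in 11.7% and 13.2% (3.44%). Values with and without these libraries are given below where they matter.

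Only 5 genes (0.0411% of those tested) were differentially expressed between AAV8-p21 livers at 8 dpc and NP livers, with an adjusted p under 0.05 in edgeR's quasi-likelihood test and a log2 fold change of more than 1 in either direction. Of these, 3 were higher (0.0246%), Cdkn1a and Ccnd1 among them, and C1rb and C1s2 were lower (0.0164%). At an unadjusted p under 0.05 there were 515 higher genes (4.23%) and 511 lower genes (4.2%), and 8.43% in either direction. The 3 AAV8-p21 libraries lay entirely above the NP libraries for 820 genes (6.74%) and entirely below for 702 (5.77%). The number of DEGs depended on the test and on single libraries. It was 93 by DESeq2 on all libraries, 191 by DESeq2 on the compared groups and 881 by limma voom with sample weights. Without NP replicate 1 it was 63, without NP replicate 2 or 3 it was 2, without AAV8-p21 replicate 2 it was 3, and without AAV8-p21 replicate 3 it was 25. Set against AAV8-null livers at 8 dpc, the AAV8-p21 livers gave 3 DEGs (0.0246%), namely C1s2, C1rb and Pianp, all lower. The same test gave 0 (0%) for AAV8-null livers at 8 dpc against NP livers, where 803 genes (6.6%) had an unadjusted p under 0.05, DESeq2 called 61 on all libraries and 70 on the compared groups, and limma voom called 883.

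**Figure D1:**
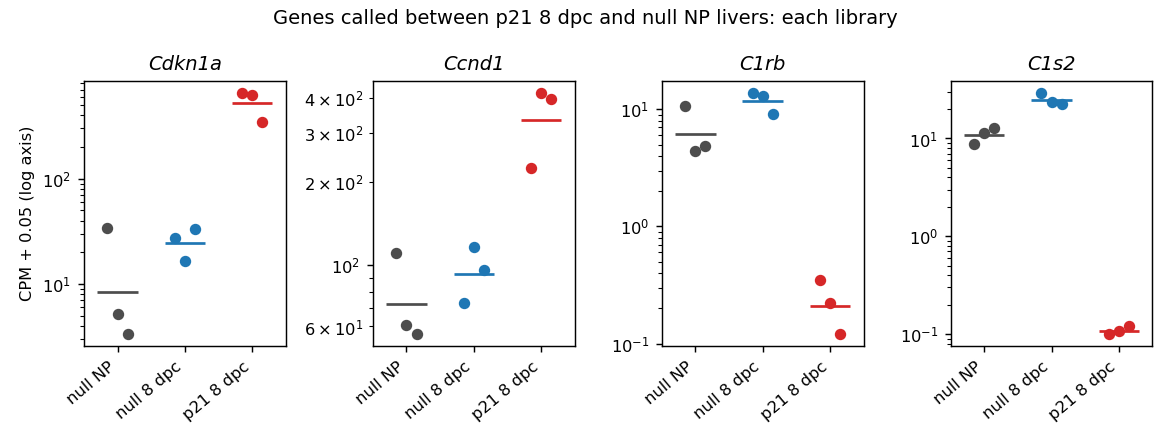
CPM of 4 DEGs in each library on log axes (0.05 added to each value), with 1 point per mouse and a line at the geometric mean of each group. The AAV8-p21 points of Cdkn1a and Ccnd1 lie above both other groups, and those of C1rb and C1s2 lie below both.

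Cdkn1a, the p21 gene on chromosome 17 (ENSMUSG00000023067, chr17:29090976-29100727, plus strand, GRCm38), checked the labels. The vector insert was amplified with the primers printed here, because they show which part of the gene it holds. The start codon is in capitals in the forward primer and the complement of the stop codon in the reverse primer.
forward: accATGtccaatcctggtgatg
reverse: TCAgggttttctcttgcagaag
Both primers matched 4 protein-coding Cdkn1a transcripts of GENCODE M21. From start codon to the end of the reverse primer they span 480 bases, which is the whole annotated coding sequence of 159 codons and a stop. The insert therefore gives reads over the coding part of Cdkn1a, and the gene's count does not separate vector from endogenous transcripts.

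Cdkn1a was at 648, 628 and 347 CPM in the AAV8-p21 livers. In NP livers it was at 33.7, 5.12 and 3.29 CPM, and in AAV8-null livers at 8 dpc at 27.2, 16.5 and 33.4 CPM. Every AAV8-p21 liver lay above every other liver of these groups, and NP replicate 1 lay well above its NP companions. The log2 fold change against NP was 5.27 (SE 0.767, adjusted p = 0.0196). The exact two-sided permutation test of the 6 libraries gave p = 0.1, the smallest it can give with 3 mice against 3. The call did not hold without NP replicate 2 (adjusted p = 0.145), NP replicate 3 (0.0831), AAV8-p21 replicate 1 (0.0550) or AAV8-p21 replicate 2 (0.0700), with log2 fold changes of 4.80 to 5.15, and without NP replicate 1 the log2 fold change was 7.00. Against AAV8-null livers at 8 dpc the log2 fold change was 4.40 (adjusted p = 0.0873).

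Ccnd1 (ENSMUSG00000070348, chr7:144929931-144939925, minus strand) encodes cyclin D1, the G1 cyclin that activates CDK4 and CDK6 and that p21 also binds. It was at 225, 417 and 398 CPM in AAV8-p21 livers, 111, 60.9 and 56.1 CPM in NP livers and 72.6, 116 and 95.7 CPM in AAV8-null livers at 8 dpc. The AAV8-p21 livers again lay above all 6 others. Ccnd1 rose by a log2 fold change of 2.19 (SE 0.339, adjusted p = 0.0314) against NP, and the call was lost without NP replicate 2 (adjusted p = 0.346), NP replicate 3 (0.305) or AAV8-p21 replicate 2 (0.198), at log2 fold changes of 2.05, 2.01 and 2.03. Against AAV8-null at 8 dpc it was 1.87 (adjusted p = 0.122), and between AAV8-null at 8 dpc and NP 0.32. Of 14 genes tested for D cyclins, their kinases and CDK inhibitors, Cdkn1a and Ccnd1 were the only DEGs, and the list had a median log2 fold change of -0.10 against -0.01 over all genes (-0.15 to -0.05 with 1 library left out). Cdkn1b, which encodes the related inhibitor p27, had 12.3, 9.36 and 7.56 CPM in AAV8-p21 livers, below its 16.3, 13.6 and 14.7 CPM in NP livers and its 19.8 to 21 CPM in AAV8-null livers at 8 dpc (log2 fold change against NP -0.61, adjusted p = 0.488). Ccnd2 and Ccnd3, the other D cyclins, had log2 fold changes of -0.11 and -0.08 against NP.

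No mitotic gene was called between AAV8-p21 livers at 8 dpc and NP livers. Of 31 tested genes for chromosome segregation, the mitotic kinases and their cyclins, none was a DEG or reached an unadjusted p under 0.05 (backgrounds 4.23% higher and 4.2% lower). Their median log2 fold change was 0.28, with values from -0.24 to 1.11 when 1 library was left out, below 0 without NP replicate 2 or AAV8-p21 replicate 3 and highest without NP replicate 1. In AAV8-null livers at 8 dpc the same genes had a median of 2.96 against NP, and 29 of 31 had an unadjusted p under 0.05, all higher (background 3.23%). Between the vectors at 8 dpc the median was -2.51, with 28 of 31 lower at that threshold (background 2.69%). These comparisons share libraries with the first, and none of the 31 genes was a DEG in them.

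AAV8-null replicate 3 at 8 dpc did not share the high mitotic levels of its companions. The mean log2(CPM + 0.5) over the list was 3.26 and 3.31 in replicates 1 and 2 but 0.71 in replicate 3, which lay within the range of the AAV8-p21 livers (0.07, 0.68 and 1.11) and of the NP livers (1.15, -0.06 and 0.16). Without that library the medians were 3.44 against NP, with 31 of 32 tested genes higher at an unadjusted p under 0.05 (background 5.58%) and 16 of them DEGs, and -2.96 for AAV8-p21 against AAV8-null, with 32 lower (background 3.08%) and 9 of them DEGs.

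Mki67, the gene of the proliferation antigen Ki67, shows the pattern by mouse. AAV8-p21 livers had 4.44, 5.71 and 8.90 CPM and NP livers 7.48, 1.10 and 2.45 CPM, 2 ranges that overlap (log2 fold change 0.79, SE 0.870, adjusted p = 0.876). AAV8-null livers at 8 dpc had 43.8, 45.4 and 4.11 CPM. Hmmr, which encodes a spindle-associated hyaluronan receptor, was at 0.296, 0.799 and 0.841 CPM in AAV8-p21 livers, 1.94, 0.305 and 0.909 CPM in NP livers and 13.6, 12.9 and 1.61 CPM in AAV8-null livers at 8 dpc. Its log2 fold change against NP was -0.71 (SE 1.03), and the sign turned without NP replicate 1 (0.08). Cdk1, the kinase that drives entry into mitosis, was at 0.740, 2.17 and 3.85 CPM in AAV8-p21 livers against 4.16, 1.04 and 1.40 CPM in NP livers. Ect2, which activates RhoA for cell division, had the smallest p of the list (log2 fold change 1.18, SE 0.714, adjusted p = 0.709), and Ccnf, which encodes cyclin F, the next (-0.52, SE 0.358, adjusted p = 0.756).

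**Figure D2:**
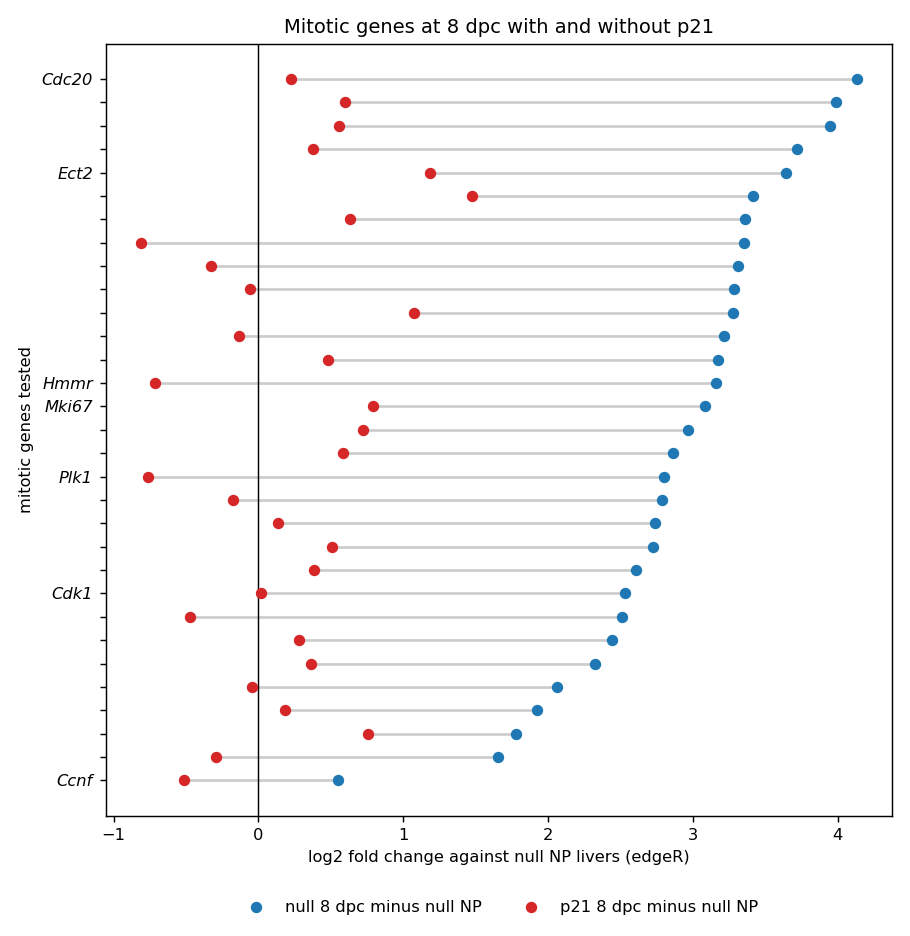
Log2 fold change against NP livers (x axis, edgeR) of the 31 tested mitotic genes (y axis, names given for those described), in AAV8-null livers at 8 dpc (blue) and AAV8-p21 livers at 8 dpc (red), joined by a line for each gene. The blue points have a median of 2.96 and the red points of 0.28, and both are set against the same 3 NP libraries.

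Promoters of 4 of these genes are printed because mitotic genes are known for a short element, the CHR (TTTGAA), through which pocket protein complexes restrain them. Each run covers 250 bases before and 50 bases after a start site annotated by RefSeq (GRCm38.p6), 5′ to 3′ on the gene's strand, with matches to TTTGAA in capitals.
Cdk1, chr10:69352863-69353162, minus strand: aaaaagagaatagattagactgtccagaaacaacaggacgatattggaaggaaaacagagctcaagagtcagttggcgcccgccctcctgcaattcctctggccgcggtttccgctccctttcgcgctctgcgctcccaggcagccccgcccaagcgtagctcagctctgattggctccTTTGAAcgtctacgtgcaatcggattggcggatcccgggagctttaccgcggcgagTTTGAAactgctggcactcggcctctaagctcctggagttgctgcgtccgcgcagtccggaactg
Plk1, chr7:122159185-122159484, plus strand: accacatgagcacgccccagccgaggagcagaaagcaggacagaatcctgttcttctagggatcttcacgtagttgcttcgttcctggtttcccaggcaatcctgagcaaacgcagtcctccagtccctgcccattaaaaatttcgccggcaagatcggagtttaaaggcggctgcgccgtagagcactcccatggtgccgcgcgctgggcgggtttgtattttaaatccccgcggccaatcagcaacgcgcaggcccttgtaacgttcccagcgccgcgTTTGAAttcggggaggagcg
Cdc20, chr4:118437294-118437593, minus strand: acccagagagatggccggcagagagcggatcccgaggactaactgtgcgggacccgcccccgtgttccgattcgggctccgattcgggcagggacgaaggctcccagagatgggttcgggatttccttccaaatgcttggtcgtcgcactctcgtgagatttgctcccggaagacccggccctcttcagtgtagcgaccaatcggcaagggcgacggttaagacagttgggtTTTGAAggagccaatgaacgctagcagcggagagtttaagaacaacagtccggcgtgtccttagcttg
Hmmr, chr11:40733388-40733687, minus strand: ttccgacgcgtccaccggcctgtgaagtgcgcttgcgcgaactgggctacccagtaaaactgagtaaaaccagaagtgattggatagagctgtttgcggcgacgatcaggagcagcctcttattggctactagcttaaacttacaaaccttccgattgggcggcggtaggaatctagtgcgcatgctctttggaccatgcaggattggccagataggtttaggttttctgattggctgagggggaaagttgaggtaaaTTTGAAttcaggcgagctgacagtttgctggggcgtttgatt
TTTGAA was searched on both strands. It lay in the promoters of 20 of the 26 mitotic genes with an entry (76.9%), of 5 of the 28 G1/S genes (17.9%) and of 20.2% of all 27025 genes. CCAAT, searched in the same way, lay in 80.8% of the mitotic genes, 64.3% of the G1/S genes and 41.1% of all genes. In Cdk1 the element occurred at 2 places in the window, 71 and 15 bases before the start. In Cdc20 it began 18 bases before the start. In Hmmr and Plk1 it began 8 and 30 bases after it. These are matches of letters and not sites shown to be bound.

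Genes of the G1/S transition and DNA replication gave 0 DEGs. Of 34 tested, 2 were higher and 1 lower at an unadjusted p under 0.05, and the median log2 fold change was 0.32 (0.24 to 0.50 with 1 library left out, highest without NP replicate 1). The AAV8-p21 libraries lay above all NP libraries for 5 of the 34 (background 6.74%). Ccne2, which encodes cyclin E2, was at 0.247, 0.571 and 0.210 CPM in AAV8-p21 livers and 0.346, 1.46 and 1.61 CPM in NP livers (log2 fold change -1.70, SE 0.597, adjusted p = 0.435). E2f2, an E2F activator of S-phase genes, was at 1.53, 1.43 and 1.12 CPM against 0.693, 0.426 and 0.350 CPM (1.47, SE 0.628, adjusted p = 0.545). For these genes the AAV8-p21 median was -0.30 against AAV8-null at 8 dpc, a smaller distance than for the mitotic genes, and the AAV8-null median was 0.63 against NP. Without AAV8-null replicate 3 those medians were -0.64 and 0.93, and without AAV8-p21 replicate 3 the first was -0.47.

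Targets of p53, the usual activator of Cdkn1a, were not called with it. The list left Cdkn1a out. Of 23 tested, none was a DEG, 0 were higher and 3 lower at an unadjusted p under 0.05 (4.2% of all genes tested were lower), and the median log2 fold change was -0.12 (-0.20 to -0.04 with 1 library left out). For 5 of them the AAV8-p21 libraries lay below all NP libraries (5.77% of all genes). With NP replicate 1 left out, 2 were higher and 1 lower of 24 (backgrounds 8.53% and 8.55%). Between the vectors at 8 dpc, 0 were higher and 6 lower (background 2.69% lower), with a median of -0.31, and without AAV8-null replicate 3 there were 3 lower of 24 (background 3.08%). Sesn2, a stress-responsive inhibitor of mTORC1, was at 5.97, 7.19 and 6.93 CPM in AAV8-p21 livers, below its 12.2, 13.1 and 12.6 CPM in NP livers and its 8.51 to 10.6 CPM in AAV8-null livers at 8 dpc (log2 fold change -0.91, SE 0.205, adjusted p = 0.164). Perp, a desmosomal p53 target, was at 61.8, 58.5 and 75.1 CPM against 96.4, 84.8 and 84.5 CPM (-0.44, adjusted p = 0.470). Among 14 tested secreted factors associated with senescence, 2 were higher and 1 lower at an unadjusted p under 0.05 and the median was 0.21 (0.40 without NP replicate 1 and 0.0049 without AAV8-p21 replicate 3). The chemokine gene Ccl2 was at 3.26, 0.571 and 1.33 CPM in AAV8-p21 livers, above its 0.416, 0.244 and 0.210 CPM in NP livers (log2 fold change 2.56, SE 0.920, adjusted p = 0.451).

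C1rb and C1s2 encode serine proteases of the C1 complex, which starts the classical complement pathway. They are neighbours on chromosome 6, C1rb (ENSMUSG00000098470) at chr6:124570294-124581171 on the plus strand and C1s2 (ENSMUSG00000079343) at chr6:124624625-124636085 on the minus strand. C1s2 had exactly 1 count in each AAV8-p21 library (0.0494, 0.0571 and 0.0700 CPM). It was at 8.73, 11.5 and 12.7 CPM in NP livers and 29.0, 23.8 and 22.4 CPM in AAV8-null livers at 8 dpc. Its mean was at least 62.0-fold lower in AAV8-p21 livers than in NP livers and at least 142-fold lower than in AAV8-null livers at 8 dpc, taking 3 counts per AAV8-p21 library as the floor. C1rb had 6, 3 and 1 counts in AAV8-p21 libraries (0.296, 0.171 and 0.0700 CPM), against 10.5, 4.33 and 4.82 CPM in NP livers and 13.7, 12.9 and 9.0 CPM in AAV8-null livers at 8 dpc. It fell by 5.05 on the log2 scale against NP (SE 0.535). Both genes had an adjusted p of 0.000863, and both calls held whichever of the 6 libraries was left out (adjusted p up to 0.0149).

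The low values were also present in the AAV8-p21 livers at 16 dpc, with 1, 2 and 0 counts of C1s2 and 2, 1 and 2 counts of C1rb, while AAV8-null livers at 16 dpc had 38 to 263 and 52 to 143 counts. All 6 AAV8-p21 libraries therefore lay below all 9 AAV8-null libraries for both genes. Pianp, which encodes a neuronal membrane protein and lies on the same chromosome at chr6:124996694-125003096, had 4 counts in each AAV8-p21 library at 8 dpc, against 15 to 29 counts in NP libraries (log2 fold change -2.73, SE 0.515, adjusted p = 0.117). It was a DEG against AAV8-null at 8 dpc (-3.44). Between these genes and 500000 bases to either side, 38 other genes were tested, of which 4 had an unadjusted p under 0.05 (background 8.43%), and their log2 fold changes lay between -1.05 and 0.88. The paralogues C1ra and C1s1, in the same cluster, were at 124 to 149 and 312 to 372 CPM in AAV8-p21 livers and 116 to 130 and 251 to 334 CPM in NP livers, with log2 fold changes of 0.18 and 0.23. In windows of 86 bases, the read length, 46.3% of the C1rb transcript also occurred in C1ra and 12.7% of the C1s2 transcripts in C1s1, and since the study's methods count uniquely mapped reads, those that map equally well to both copies add to neither. The levels of these genes thus rest on the remaining stretches. What separates the AAV8-p21 mice from the others at these genes was not tested.

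**Figure D3:**
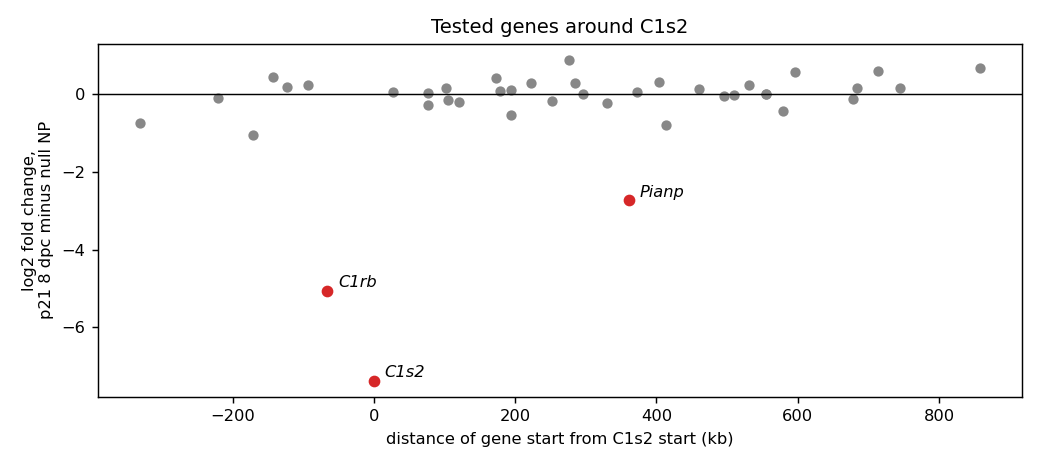
Log2 fold change between AAV8-p21 livers at 8 dpc and NP livers (y axis) of the 41 genes tested around C1s2, by distance of the gene start from that of C1s2 in kb (x axis). C1s2, C1rb and Pianp (red) lie at -7.37, -5.05 and -2.73, and the other 38 (grey) between -1.05 and 0.88.

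Beyond the DEGs, the comparison was described by lists of genes with a shared function, by their medians and their counts at an unadjusted p under 0.05, read against the backgrounds of 4.23% higher and 4.2% lower and an overall median of -0.01. Apart from C1rb and C1s2, no member of the lists that follow was a DEG, so the values describe these livers and are not calls.

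**Figure D4:**
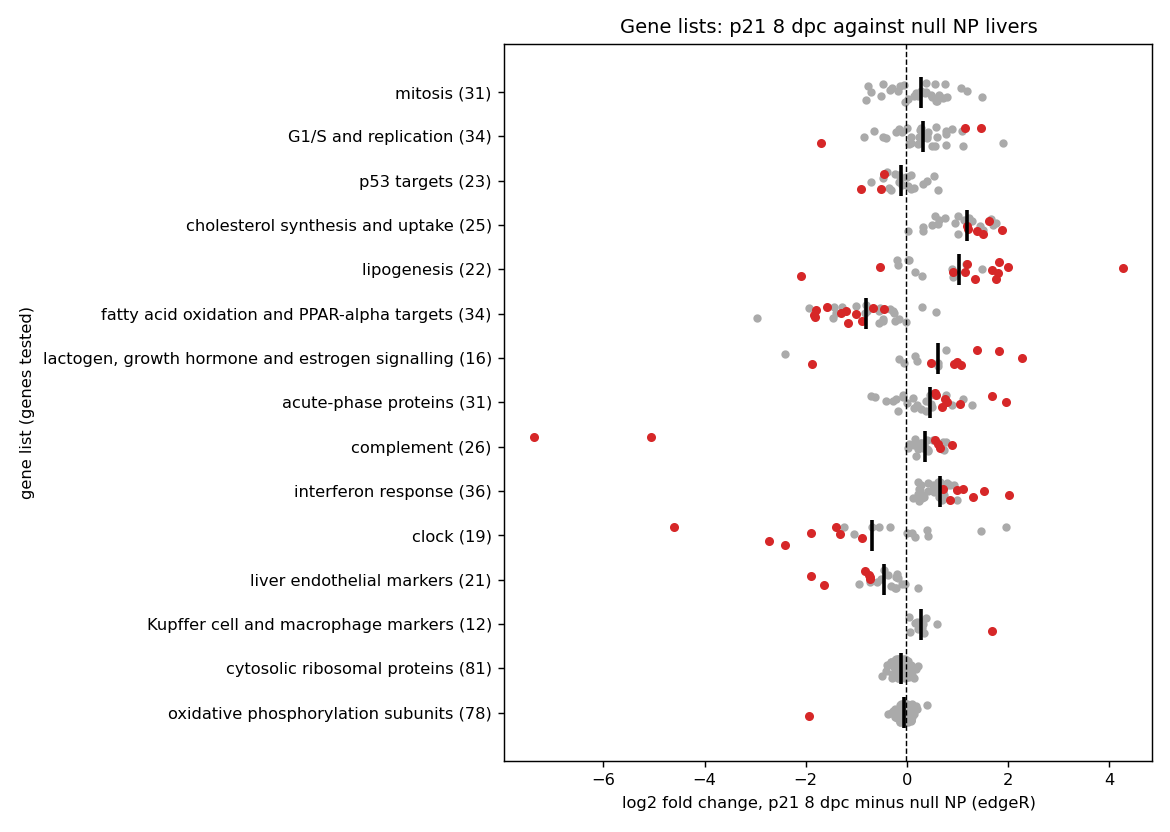
Log2 fold change between AAV8-p21 livers at 8 dpc and NP livers (x axis, edgeR) of every tested member of 15 lists (y axis, number tested in brackets), with a bar at each median, members with an unadjusted p under 0.05 in red and a dashed line at the median of all genes. Cholesterol and lipogenesis genes have medians of 1.18 and 1.04, PPARα targets of -0.81, and ribosomal proteins and oxidative phosphorylation subunits of -0.12 and -0.06.

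Genes for cholesterol synthesis and uptake had positive log2 fold changes in 25 of 25 cases (background 48.4%), with a median of 1.18. Of them 6 had an unadjusted p under 0.05, all higher, and for 13 the AAV8-p21 libraries lay above all NP libraries (background 6.74%). Most members are controlled by SREBP-2. Dhcr7, the last enzyme of cholesterol synthesis, was at 97.6, 103 and 84.7 CPM in AAV8-p21 livers, 31.2, 13.4 and 32.5 CPM in NP livers and 57.6, 66.6 and 12.5 CPM in AAV8-null livers at 8 dpc (log2 fold change against NP 1.89, SE 0.639, adjusted p = 0.424). Lss, which closes the sterol ring, was at 78.4, 67.9 and 54.2 CPM, 30.2, 14.5 and 31.8 CPM and 29.9, 39.2 and 14.8 CPM in the same order (1.39, SE 0.469, adjusted p = 0.424). For both, the AAV8-p21 livers lay above all NP livers and all AAV8-null livers at 8 dpc. Hmgcs1, which makes the precursor of mevalonate, was at 431, 531 and 258 CPM against 185, 52.3 and 159 CPM in NP livers (1.62, SE 0.676).

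The median of the cholesterol list was 1.18 also against AAV8-null livers at 8 dpc, with 5 of 25 higher and 0 lower at an unadjusted p under 0.05 (background 2.5% higher), and 0.03 between AAV8-null at 8 dpc and NP. The second comparison shares the AAV8-p21 libraries and the third the NP libraries. AAV8-null replicate 3 at 8 dpc was low, with a list mean of 4.38 (log2(CPM + 0.5)) against 5.80 and 6.17 in its companions. Without it the medians were 0.84, with 1 of 25 genes higher (background 1.96%), and 0.40, with 1 higher (background 5.58%). Among NP livers replicate 2 was low (4.71 against 5.81 and 6.03), while the AAV8-p21 livers were at 6.83, 6.93 and 6.43. Leaving out 1 library kept the median against NP between 0.81 and 1.44. With NP replicate 1 left out, 11 of 25 were higher and 0 lower at an unadjusted p under 0.05 (backgrounds 8.53% and 8.55%). With AAV8-p21 replicate 3 left out, 7 were higher and 0 lower (4.51% and 5.8%).

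The Hmgcs1 promoter is shown for its sterol regulatory element, the sequence that SREBPs bind, in capitals (RefSeq, GRCm38.p6, same window as above).
Hmgcs1, chr13:119690101-119690400, plus strand: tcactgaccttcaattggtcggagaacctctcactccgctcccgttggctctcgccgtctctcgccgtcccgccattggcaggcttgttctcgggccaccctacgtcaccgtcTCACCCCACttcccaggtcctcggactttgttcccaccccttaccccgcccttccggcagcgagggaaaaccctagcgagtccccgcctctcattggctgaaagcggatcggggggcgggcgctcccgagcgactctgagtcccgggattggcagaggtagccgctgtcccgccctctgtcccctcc
TCACNCCAC or TCACNCCAT on either strand lay in the promoters of 3 of the 17 cholesterol genes with an entry (17.6%), of 1 of 18 lipogenesis genes (5.56%) and of 2.27% of all genes. The match in Hmgcs1 began 137 bases before the start.

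Lipogenesis genes, which make and store fatty acids, had a median log2 fold change of 1.04, and 10 of 22 were higher and 2 lower at an unadjusted p under 0.05. For 12 the AAV8-p21 libraries lay above all NP libraries. Fasn, the fatty acid synthase gene, was at 796, 611 and 665 CPM in AAV8-p21 livers, 220, 107 and 195 CPM in NP livers and 190, 315 and 98.4 CPM in AAV8-null livers at 8 dpc (log2 fold change against NP 1.99, SE 0.568, adjusted p = 0.310). Elovl6, which elongates palmitate, was at 255, 181 and 207 CPM, 51.6, 59.9 and 74.0 CPM and 74.1, 79.8 and 53.1 CPM in the same order (1.79, SE 0.445, adjusted p = 0.212). Acly, which makes cytosolic acetyl-CoA from citrate, was at 486, 257 and 269 CPM against 84.4, 90.1 and 140 CPM in NP livers (1.69), and Srebf1, which encodes SREBP-1, at 260, 176 and 128 CPM against 60.9, 41.1 and 58.2 CPM (1.82). For these 4 genes every AAV8-p21 liver lay above every NP liver and every AAV8-null liver at 8 dpc. Pklr, the liver pyruvate kinase gene and the smallest p of the list, was at 193, 212 and 300 CPM against 102, 86.3 and 88.2 CPM (1.35, SE 0.334, adjusted p = 0.209).

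Lpin1 and Dgat1, which act in triglyceride assembly, were the lower members. Lpin1, also a coactivator of PPARα, was at 36.5, 29.6 and 84.3 CPM in AAV8-p21 livers and 99.2, 227 and 320 CPM in NP livers (log2 fold change -2.10, SE 0.554, adjusted p = 0.258). The list's median was 0.66 between the vectors at 8 dpc and 0.17 between AAV8-null livers at 8 dpc and NP. Without AAV8-null replicate 3 these were 0.53 and 0.23. Without NP replicate 1 the main median was 1.02, with 8 higher and 2 lower at an unadjusted p under 0.05 (backgrounds 8.53% and 8.55%), and without AAV8-p21 replicate 3 it was 1.02 with 10 higher and 2 lower (4.51% and 5.8%).

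Genes of fatty acid oxidation and other targets of PPARα, the receptor that drives fat burning in fasting, lay on the opposite side. Their median log2 fold change was -0.81, only 2 of 34 were positive, 0 were higher and 11 lower at an unadjusted p under 0.05, and for 16 the AAV8-p21 libraries lay below all NP libraries (background 5.77%). Vnn1, a pantetheinase, was at 39.4, 48.4 and 87.1 CPM in AAV8-p21 livers, 210, 239 and 161 CPM in NP livers and 87.2, 68.6 and 282 CPM in AAV8-null livers at 8 dpc (log2 fold change against NP -1.80, SE 0.485, adjusted p = 0.269). Cyp4a32, a fatty acid omega-hydroxylase gene with close copies, was at 9.23, 14.0 and 13.2 CPM against 17.4, 68.7 and 42.1 CPM in NP livers (-1.82, adjusted p = 0.302). Acadm, the medium-chain acyl-CoA dehydrogenase gene, was at 252, 249 and 270 CPM against 472, 562 and 519 CPM (-1.01, adjusted p = 0.435). Cpt1a, which admits fatty acids to mitochondria, was at 159, 247 and 360 CPM and overlapped NP livers, where replicate 1 was at 283 and the others at 771 and 705 CPM. Ppara itself was at 37.7, 50.3 and 23.0 CPM, while NP replicate 1 was at 21.2 and its companions at 180 and 196 CPM.

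The median of this list was -0.38 against AAV8-null livers at 8 dpc and -0.24 between AAV8-null livers at 8 dpc and NP. AAV8-null replicate 3 at 8 dpc had a list mean of 8.26, above its companions at 7.33 and 6.90, above the NP livers at 7.55, 8.09 and 7.98 and above the AAV8-p21 livers at 6.64, 6.88 and 7.44. Without it the medians were -0.12 and -0.58, with 1 and 6 of 34 genes lower at an unadjusted p under 0.05 (backgrounds 3.08% and 5.21%). With AAV8-p21 replicate 3 left out instead, the median between the vectors at 8 dpc was -0.73, with 6 of 34 lower (background 3.43%). Leaving out 1 library of the main comparison kept the median between -1.08 and -0.64. For these mice the feeding state and time of day at sampling were not given in the sources used here, and their part in the lipid lists was not tested.

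**Figure D5:**
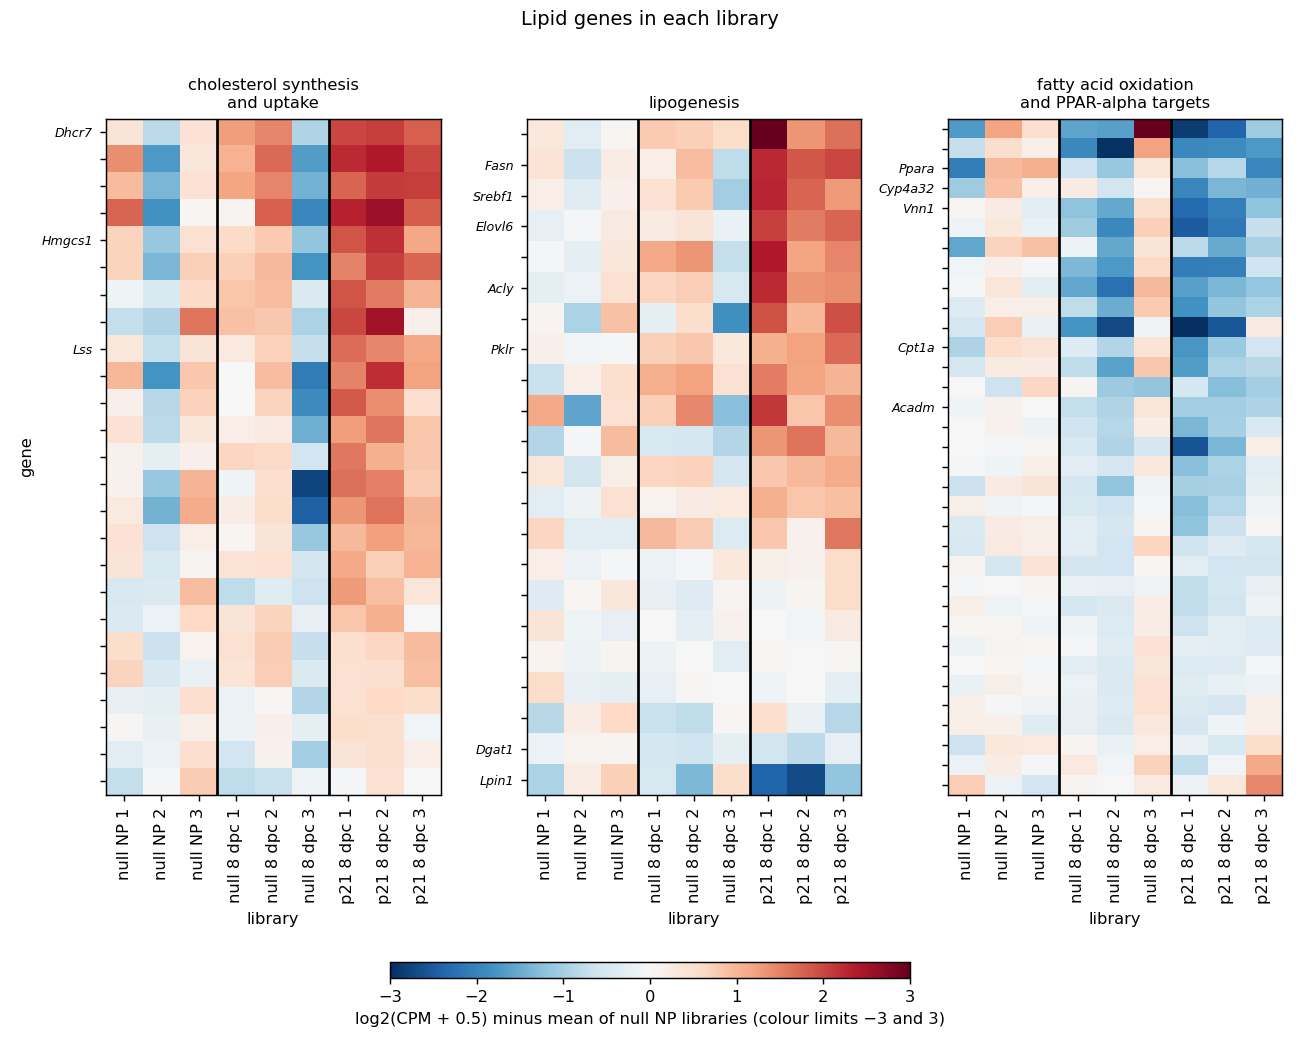
Heat maps of log2(CPM + 0.5) minus the mean of the 3 NP libraries (colour, limits -3 and 3) for each tested gene (y axis, names given for those described) of the cholesterol, lipogenesis and fatty acid oxidation lists in 9 libraries (x axis). The AAV8-p21 columns are red for most cholesterol and lipogenesis genes and blue for most fatty acid oxidation genes, and replicate 3 of AAV8-null at 8 dpc differs in colour from replicates 1 and 2.

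Receptors and targets of prolactin, growth hormone and estrogen, the hormone systems of pregnancy, had a median log2 fold change of 0.61, with 7 of 16 higher and 1 lower at an unadjusted p under 0.05. Lifr, the receptor of leukemia inhibitory factor, was at 592, 945 and 921 CPM in AAV8-p21 livers, 228, 130 and 147 CPM in NP livers and 580, 594 and 201 CPM in AAV8-null livers at 8 dpc (log2 fold change against NP 2.28, SE 0.450, adjusted p = 0.130). Socs2, a STAT5 target that dampens growth hormone signalling, was at 38.3, 38.8 and 57.2 CPM, 23.2, 17.2 and 10.8 CPM and 59.1, 27.2 and 32.2 CPM in the same order (1.39, SE 0.300, adjusted p = 0.159). Prlr, the prolactin receptor, was at 616, 631 and 667 CPM against 449, 217 and 249 CPM in NP livers, and at 649, 609 and 331 CPM in AAV8-null livers at 8 dpc (1.06). In each of these 3 genes every AAV8-p21 liver lay above every NP liver. Bcl6, a repressor that STAT5 lowers, was at 3.36, 3.25 and 4.90 CPM against 9.42, 20.0 and 12.5 CPM (-1.87). The list's median was 0.54 between AAV8-null livers at 8 dpc and NP (8 higher and 1 lower at an unadjusted p under 0.05, backgrounds 3.23% and 3.37%) and 0.02 between the vectors at 8 dpc. Without NP replicate 1 the main median was 0.79, the log2 fold changes of Lifr and Socs2 were 2.57 and 1.67, and both were DEGs. Without AAV8-p21 replicate 3 the main median was 0.37, with 6 higher and 1 lower (backgrounds 4.51% and 5.8%).

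Genes with female-biased expression in mouse liver had a median of 0.61, with 6 of 23 higher and 0 lower, and male-biased genes of -0.21 (-0.06 without NP replicate 1), with 1 higher and 1 lower of 19. Prom1, the gene of CD133, was at 59.2, 41.5 and 24.3 CPM in AAV8-p21 livers, above its 9.63, 1.10 and 2.52 CPM in NP livers (3.25, SE 0.897, adjusted p = 0.296). A1bg, a female-specific plasma protein gene, was at 3926, 7668 and 7879 CPM in AAV8-p21 livers. In NP livers it was at 1826 CPM in replicate 1 but at 6.52 and 13.5 CPM in the others, and in AAV8-null livers at 8 dpc at 6629, 8726 and 662 CPM (log2 fold change against NP 3.4, adjusted p = 0.548). NP replicate 1 thus lay between its companions and the AAV8-p21 livers for A1bg, and without that library the log2 fold change was 9.34 (adjusted p = 0.00352). The median of the female-biased list was 0.34 without NP replicate 1 and 0.30 without AAV8-p21 replicate 3, with 9 higher and 2 lower (backgrounds 8.53% and 8.55%) and 3 higher and 0 lower (4.51% and 5.8%).

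Acute-phase proteins, made by hepatocytes in inflammation, had a median of 0.45, with 8 of 31 higher and 0 lower at an unadjusted p under 0.05. Apcs, the serum amyloid P gene, was at 203, 321 and 402 CPM in AAV8-p21 livers, 135, 49.0 and 55.9 CPM in NP livers and 248, 464 and 169 CPM in AAV8-null livers at 8 dpc (1.95, SE 0.452, adjusted p = 0.165). In AAV8-null livers at 8 dpc the list's median against NP was 0.89, with 19 of 31 higher (background 3.23%), and against AAV8-null livers at 8 dpc the AAV8-p21 median was -0.38, with 8 lower (background 2.69%). Saa1, a serum amyloid A gene with close copies, shows how 1 mouse enters these values. It was at 869 CPM in AAV8-null replicate 2 at 8 dpc and at 11 to 42.1 CPM in the other 8 libraries. Lcn2, an iron-sequestering acute-phase protein gene, was at 13.2, 52.6 and 26.8 CPM in AAV8-p21 livers, 17.3, 4.26 and 7.2 CPM in NP livers and 49.9, 297 and 51.1 CPM in AAV8-null livers at 8 dpc. Without AAV8-p21 replicate 3 the main median was 0.27, with 4 higher and 2 lower (backgrounds 4.51% and 5.8%), and leaving out 1 library gave 0.27 to 0.59.

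The remaining complement genes lay mostly above NP. Apart from C1rb and C1s2, which are members, all 24 tested had a positive log2 fold change, 4 with an unadjusted p under 0.05, and the median of the 26 was 0.36 (0.22 to 0.49 with 1 library left out, lowest without NP replicate 2). C3, the central component, was at 11846, 13088 and 9934 CPM in AAV8-p21 livers, 7647, 8166 and 7875 CPM in NP livers and 12394, 13943 and 10508 CPM in AAV8-null livers at 8 dpc (0.56, SE 0.207, adjusted p = 0.470). Hc, which encodes C5, was at 754, 918 and 707 CPM against 508, 498 and 540 CPM in NP livers (0.62). For both, the pregnant livers of either vector lay above all NP livers, and the list's median was 0.34 between AAV8-null livers at 8 dpc and NP and 0.07 between the vectors at 8 dpc (0.53 and -0.10 without AAV8-null replicate 3). Coagulation genes had a median of 0.18, with 3 higher and 2 lower of 26. Their median was 0.31 without NP replicate 1, with 7 higher and 3 lower (backgrounds 8.53% and 8.55%), and 0.08 without AAV8-p21 replicate 3. F8, the factor VIII gene expressed by liver endothelium, was at 10.7, 9.36 and 8.69 CPM in AAV8-p21 livers, below NP replicates 2 and 3 (26.4 and 32.6 CPM) and above NP replicate 1 (7.00 CPM).

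Interferon-response genes had a positive log2 fold change in 36 of 36 cases, with a median of 0.65, and 7 were higher at an unadjusted p under 0.05. For 7 the AAV8-p21 libraries lay above all NP libraries. Gbp6, a guanylate-binding protein gene of a family with close copies, was at 18.2, 18.8 and 13.2 CPM in AAV8-p21 livers, 9.42, 4.08 and 3.99 CPM in NP livers and 17.4, 15.7 and 5.25 CPM in AAV8-null livers at 8 dpc (1.53, SE 0.488, adjusted p = 0.392). Zbp1, a sensor of Z-form nucleic acid, was at 26.8, 27.4 and 29.1 CPM against 13.4, 3.29 and 4.06 CPM in NP livers (2.01, SE 0.683). NP replicate 1 had the highest level of the NP libraries for both. The list mean of NP replicate 1, 4.15, was near those of the AAV8-p21 livers (4.19, 4.30 and 4.22), while NP replicates 2 and 3 were at 3.20 and 3.24, and AAV8-null livers at 8 dpc were at 4.15, 4.24 and 3.29. Without NP replicate 1 the median was 1.08, with 22 higher and 0 lower (backgrounds 8.53% and 8.55%), and without NP replicate 2 it was 0.43. Kupffer cell and macrophage markers had a median of 0.29 (0.14 to 0.47 with 1 library left out, lowest without NP replicate 2 and highest without NP replicate 1) and all 12 had a positive log2 fold change, with 1 higher at an unadjusted p under 0.05. For 2 of them, Marco and Timd4, the AAV8-p21 libraries lay above all NP libraries. Marco, a scavenger receptor gene, was at 55.1, 15.5 and 14.6 CPM against 6.30, 9.50 and 10.9 CPM in NP livers (1.68, SE 0.469, adjusted p = 0.302), so AAV8-p21 replicate 1 stood well above its companions. Timd4, a receptor gene for phosphatidylserine, was at 12.9, 7.59 and 7.00 CPM against 6.44, 5.36 and 6.43 CPM (0.60, SE 0.382, adjusted p = 0.724). Clec4f, a lectin gene of Kupffer cells, was at 114, 114 and 119 CPM against 134, 94.1 and 110 CPM in NP livers. The summed level of the 12 was 529 to 672 CPM in AAV8-p21 livers and 427 to 583 CPM in NP livers. Their part in the interferon list was not tested.

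Markers of liver endothelial cells lay below NP. Only 1 of 21 had a positive log2 fold change, the median was -0.46, and 0 were higher and 6 lower at an unadjusted p under 0.05. Wnt2, a Wnt ligand that endothelial cells of the central vein and sinusoids give to hepatocytes, came closest to a call after the DEGs among the genes of the lists. It was at 1.73, 1.66 and 1.26 CPM in AAV8-p21 livers, 3.67, 5.06 and 5.80 CPM in NP livers and 1.92, 1.96 and 1.92 CPM in AAV8-null livers at 8 dpc (-1.63, SE 0.276, adjusted p = 0.0655), and it was a DEG without NP replicate 1 (adjusted p = 0.0184). Stab2, a scavenger receptor of the sinusoids, was at 30.01, 26.4 and 31.0 CPM against 30.1, 60.0 and 55.9 CPM (-0.74). NP replicate 1 lay with the pregnant livers for this gene, and its list mean was 3.75 against 4.57 and 4.54 in its companions and 4.0, 3.68 and 3.78 in AAV8-p21 livers. Without it the median was -0.74, with 12 lower (background 8.55%), whereas without NP replicate 2 it was -0.21. Between AAV8-null livers at 8 dpc and NP the list had a median of -0.82, with 17 of 21 lower (background 3.37%), and between the vectors at 8 dpc of 0.28, with 4 higher and 0 lower (background 2.5% higher). Without AAV8-null replicate 3 the latter was 0.48, with 5 higher (background 1.96%). With AAV8-p21 replicate 3 left out instead, the median between the vectors was 0.35, with 2 higher (background 2.32%).

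The other cell type lists were short. Of 8 monocyte and neutrophil markers, 3 were higher (median 0.83, and 0.54 without AAV8-p21 replicate 1), among them Cx3cr1 at 0.628 to 0.841 CPM and S100a8 at 0.628 to 1.09 CPM in AAV8-p21 livers. With AAV8-p21 replicate 3 left out, 1 of 10 tested was higher (background 4.51%), and with NP replicate 1 left out, 3 of 10 (background 8.53%). Of 14 stellate cell markers none reached an unadjusted p under 0.05 (median 0.22), nor did any of 12 lymphocyte markers (median 0.04). The stellate median was 0.54 without NP replicate 1, with 3 of 14 higher (background 8.53%), and 0.14 without NP replicate 3. Of 6 bile duct markers, Spp1 was higher at that threshold, and of 6 erythroid markers the globin genes Hbb-bt and Hbb-bs, with 13.2, 21.9 and 14.9 CPM of Hbb-bt in AAV8-p21 livers against 9.56, 4.20 and 6.85 CPM in NP livers. Of 8 hepatocyte markers 2 were lower at an unadjusted p under 0.05, Apoa1 (log2 fold change -0.77) and Hnf4a (-0.47). The median of the 8 was -0.25, with 6 negative. The summed level of all 8, most of which is Alb, was 107807 to 129546 CPM in AAV8-p21 livers against 94045 to 110519 CPM in NP livers.

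Clock genes had a median of -0.69, with 0 higher and 7 lower of 19 at an unadjusted p under 0.05, and they also varied within the NP group. Ciart, a repressor of the clock with a strong daily rhythm, was at 0.0494, 0 and 1.26 CPM in AAV8-p21 livers, while NP replicate 1 had 0.485 CPM and its companions 9.63 and 18.9 CPM (-4.60, SE 1.32, adjusted p = 0.315). Hlf, an output factor, was at 20.3, 24.5 and 33.1 CPM against 35.6, 53.5 and 54.1 CPM (-0.88, SE 0.280, adjusted p = 0.388). Dbp, another output factor, was at 0.642 and 1.71 CPM in AAV8-p21 replicates 1 and 2 and at 61.4 CPM in replicate 3. Arntl, which encodes BMAL1, was at 31.4 and 21.4 CPM in those replicates and 2.45 CPM in replicate 3, at 17.2 CPM in NP replicate 1 against 1.71 and 1.40 CPM in its companions, and at 24.0, 25.4 and 8.06 CPM in AAV8-null replicates 1, 2 and 3 at 8 dpc. The libraries that stood apart in each group thus also had other levels of Arntl. The clock list mean (log2(CPM + 0.5)) was 3.87 in NP replicate 1 against 4.56 and 4.58 in its companions. It was 3.96 in AAV8-p21 replicate 3 against 3.50 and 3.52, but 3.91 in AAV8-null replicate 3 at 8 dpc against 3.82 and 3.82. The part of the time of sampling in any list was not tested. Without AAV8-p21 replicate 3 the median was -1.10, with 10 lower and 2 higher (backgrounds 5.8% and 4.51%), and without NP replicate 2 it was -0.46.

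Bile acid genes had 2 higher and 5 lower of 26 (median -0.18, and -0.06 without AAV8-p21 replicate 3). Nr0b2, which encodes the bile acid feedback repressor SHP, was at 13.9, 7.02 and 4.34 CPM in AAV8-p21 livers against 63.2, 18.6 and 23.6 CPM in NP livers (-2.05, SE 0.674, adjusted p = 0.417). Of 40 genes for the urea cycle and amino acid catabolism, 1 was higher and 6 lower (median -0.11). Their median was -0.23 without NP replicate 1, with 12 lower (background 8.55%), and -0.04 without AAV8-p21 replicate 3. Tdo2, the tryptophan dioxygenase gene, was at 373, 269 and 204 CPM against 542, 1791 and 2115 CPM in NP livers (-2.40, SE 0.548, adjusted p = 0.164). Among 28 P450 genes and their regulators, 3 were higher and 5 lower (median 0.03). Cyp2e1, a pericentral P450, was at 3526, 3527 and 4619 CPM against 6710, 8841 and 8983 CPM (-1.07, SE 0.285, adjusted p = 0.262), and Cyp3a25 at 301, 193 and 203 CPM against 418, 716 and 839 CPM (-1.50, SE 0.340, adjusted p = 0.164). For Tdo2, Cyp2e1 and Cyp3a25 the AAV8-p21 livers lay below every NP liver.

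Of 24 genes of endoplasmic reticulum stress, Herpud1, which serves protein degradation there, was at 78.8, 149 and 245 CPM against 780, 463 and 512 CPM in NP livers and 186, 398 and 364 CPM in AAV8-null livers at 8 dpc (-1.89, SE 0.378, adjusted p = 0.130), and Atf4 was at 109, 94.6 and 93.4 CPM against 91.8, 57.3 and 54.6 CPM (0.54). The list's median was -0.13, and 0.80 without NP replicate 1. Among 23 hepatokines and binding proteins of IGF, 2 were higher and 6 lower (median -0.13, with -0.04 without NP replicate 1 and -0.26 without AAV8-p21 replicate 3). Inhba, which encodes the activin A subunit, was at 13.3, 21.7 and 11.8 CPM against 3.32, 3.47 and 4.41 CPM in NP livers and 7.68 to 9.41 CPM in AAV8-null livers at 8 dpc (2.06, SE 0.452, adjusted p = 0.163), so the 3 groups did not overlap. Tsku, a secreted leucine-rich protein gene, was at 7.95, 28.5 and 24.0 CPM against 91.8, 101 and 141 CPM in NP livers (-2.47, SE 0.796, adjusted p = 0.407).

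Of 18 glycogen genes none had an unadjusted p under 0.05 (median 0.03), and of 29 genes of glycolysis and gluconeogenesis 1 was higher, Pklr, and 2 were lower (median -0.16). Without NP replicate 1, 6 of the 29 were lower (background 8.55%) and 1 was higher. Of the 18 glycogen genes, 1 was higher and 3 lower with AAV8-p21 replicate 3 left out (backgrounds 4.51% and 5.8%). With NP replicate 1 left out, 0 of the 18 were higher and 1 was lower (8.53% and 8.55%). Slc37a4, the glucose-6-phosphate transporter gene, was at 63.9, 86.2 and 124 CPM against 129, 249 and 266 CPM in NP livers (-1.24, SE 0.345, adjusted p = 0.302), and Pck1, the gluconeogenic carboxykinase gene, at 918, 1598 and 2026 CPM against 3203, 2746 and 2458 CPM (-0.89, adjusted p = 0.463). In both, every AAV8-p21 liver lay below every NP liver. The study named H6pd, Pdk4, Sgk1 and Slc45a3 for glucose handling, as lower with AAV8-p21 than with AAV8-null in late pregnancy. The values here set AAV8-p21 livers at mid-gestation against NP livers, so they do not test that result. The log2 fold changes of these genes were 0.17, -1.01, -0.52 and -0.10 in that order, with adjusted p values of 0.770 to 0.970. The sign of Slc45a3 turned without NP replicate 1 (0.30) or AAV8-p21 replicate 3 (0.20).

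Of 81 cytosolic ribosomal protein genes, 0 were higher and 0 lower at an unadjusted p under 0.05, with a median of -0.12, and of 78 oxidative phosphorylation subunits 1 was lower, with a median of -0.06. Both medians turned positive without NP replicate 1, to 0.11 (59 of 81 positive) and 0.20 (62 of 78 positive). Without AAV8-p21 replicate 3 they were -0.38 (3 of 81 positive, 19 lower) and -0.28 (4 of 78 positive, 5 lower), against a background of 5.8% lower. Sulfotransferases (1 higher and 1 lower of 18), pericentral genes (0 and 1 of 18), periportal genes (3 and 3 of 16), iron handling (0 and 1 of 17), plasma carriers and lipoproteins (0 and 2 of 25) and immediate-early genes (0 and 0 of 16) had medians between -0.17 and 0.37. With NP replicate 1 left out these medians ran from -0.38 in periportal genes, with 6 of 16 lower (background 8.55%), to 0.34 in sulfotransferases. With AAV8-p21 replicate 3 left out they ran from -0.29 in plasma carriers and lipoproteins, with 5 of 25 lower (background 5.8%), to 0.11 in sulfotransferases, and that of the immediate-early genes was -0.24.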

How the data were processed

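RNA was sequenced from 15 livers in 5 groups of 3 mice; the groups compared here hold 6 of them. The authors deposited whole-number read counts per gene for each library. Per the paper and the submitters' processing notes, reads were trimmed with cutadapt 1.14, aligned to mm10 with HISAT2 2.1.0 and those that mapped uniquely were counted per protein-coding gene with HTSeq 0.12.4 on GENCODE annotation. The strand setting and the handling of overlapping genes during counting were not given in the sources used here. Laser-captured lobule zones were not analysed here.

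Counts were tested with edgeR 4.0.16 (R 4.3.3), using TMM factors, filterByExpr with a minimum count of 10, and quasi-likelihood tests with Benjamini-Hochberg adjustment on all 15 libraries, which left 12172 of 21702 genes and gave 10 residual degrees of freedom and a common BCV of 0.277. A DEG had an adjusted p under 0.05 and a log2 fold change beyond 1 in size. The study used DESeq2, whose Wald test (version 1.42.0) was one alternative. The others were limma 3.58.1 voom with sample weights, other size factors, other filters on low counts, the compared groups alone, a replicate block, the removal of Cdkn1a and the removal of each library. Alternatives for the list medians were chosen after seeing the data. CPM were computed by edgeR with TMM-scaled library sizes. Columns of the AAV8-p21 group at 16 dpc carry other replicate numbers than the labels and were used by group only. Depth per library is given with the results.

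On data simulated from the mean levels and sizes of all 15 libraries, edgeR recovered 97.5% of 200 genes changed in AAV8-p21 livers. The share was 96.6% at a log2 change of 2 and 98.2% at 3, with 14 other calls among 12002 genes. On the same simulated data DESeq2 recovered 99% with 35 other calls among 12170 genes on all libraries. It recovered 98.5% with 53 other calls among 11934 genes on the compared groups. Only genes of higher level were changed, and no simulated library stood apart. These shares therefore do not give the recovery to be had with the real libraries.

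The members and gene lists were chosen with earlier results of these data known. Genes named were taken from Cdkn1a, the genes the study followed up (Slc45a3, Sgk1, H6pd, Pdk4 and Hmmr), up to 15 DEGs with the largest change in each direction and libraries that did not overlap, and from each list up to 4 DEGs by p, or else the 2 members with the smallest unadjusted p. Every other gene named was chosen after its values were seen, and a few genes that the rule names are not reported here. Gene positions are from GENCODE M21 on GRCm38 (12170 of the 12172 genes matched), and promoters from RefSeq (GRCm38.p6), with no entry for Ccnd1. Figures were drawn with matplotlib 3.10.9. Replicates were different mice.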

Additional observations from a re-analysis of the deposited data

How the results depend on the processing

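With 3 mice a group and 1 library apart in each, the number of DEGs was the least stable result. For AAV8-p21 livers at 8 dpc against NP livers it was 5, and 0 when at least 10 counts were asked of every library (866 genes at an unadjusted p under 0.05), a filter that removed C1rb and C1s2. It was 93 with DESeq2 on all libraries, 191 with DESeq2 on the compared groups, 881 with limma voom, 1 with edgeR on the compared groups, and 2 to 63 with 1 library left out. Against AAV8-null livers at 8 dpc, where it was 3, those settings gave 0, 27, 81, 88, 5 and 2 to 38, the last without AAV8-null replicate 3. For AAV8-null livers at 8 dpc against NP, where it was 0, DESeq2 gave 61 and 70, limma voom 883, and leaving out 1 library 0 to 91, the last again without AAV8-null replicate 3. The cause of these differences was not tested.

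The log2 fold change of Cdkn1a was 4.80 to 7.00 with 1 library left out. It missed the threshold at 5.27 with at least 10 counts everywhere (adjusted p = 0.0615), at 5.27 with edgeR on the compared groups (0.138), at 5.58 with the replicate block (0.0569) and at 5.27 without the block on the same 12 libraries (0.0528). Ccnd1 missed it under the same settings (adjusted p = 0.0615, 0.138, 0.124 and 0.0507), at log2 fold changes of 2.16 to 2.19. C1s2 was called in every setting that tested it, and C1rb in all but edgeR on the compared groups (0.0740).

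Deviations of same-numbered libraries correlated at -0.265, 0.0288 and -0.205 in AAV8-p21 and NP livers. In AAV8-null livers at 8 dpc and NP livers they correlated at 0.185, -0.529 and 0.327. With 3 libraries a group, of which 1 stood apart, these values cannot tell whether the replicate numbers pair the mice. With the replicate block 4 genes were called, against 2 without the block on the same 12 libraries.

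With limma voom the sign turned for Slc45a3 (0.54), Hmmr (0.13) and Prf1 (-0.30). Cela3b, which had a log2 fold change of 0 in the main test, was at -0.22. With 1 library left out, log2 fold changes ran from -0.36 to 0.30 for Slc45a3 (positive without NP replicate 1 or AAV8-p21 replicate 3), from -1.16 to 0.082 for Hmmr (positive without NP replicate 1) and from -0.28 to 1.51 for Prf1 (negative without AAV8-p21 replicate 3). The glycogen median ran from -0.10 to 0.16 (negative without NP replicate 1 or AAV8-p21 replicate 1), and that of glycolysis and gluconeogenesis from -0.12 to 0.022 (positive without AAV8-p21 replicate 1). Of the other results for named genes under these settings, 1160 kept both direction and side of the threshold, 91 came to pass it and 20 no longer did. Over 20 of the lists, each tried under every setting, 294 medians moved by less than the spread between replicates and 23 by more, and the mitotic median also turned negative, to -0.24 without AAV8-p21 replicate 3 and -0.01 without NP replicate 2. The other lists were tried only without the libraries that stood apart. Without NP replicate 1 the medians of ribosomal proteins (0.11), oxidative phosphorylation (0.20), endoplasmic reticulum stress (0.80) and the study's 5 genes (0.08) turned positive and that of P450s (-0.01) negative, and without AAV8-p21 replicate 3 those of immediate-early genes (-0.24), iron handling (-0.06) and lymphocyte markers (-0.0016) turned negative.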
